A study of Drosophila melanogaster with 3 samples.

Results

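The small nucleolar RNA (snoRNA) genes of Drosophila melanogaster were examined for binding of the ETS-domain transcription factor Pointed (Pnt). All genes of biotype snoRNA in the dm6 annotation were taken, which gave 269 of the 18164 annotated genes that are not transposable elements on the 6 main chromosome arms. A gene was called near a peak when a peak summit lay within 500 bp of it. Pnt was measured by chromatin immunoprecipitation followed by sequencing (ChIP-seq) with an anti-GFP antibody, in whole embryos of mixed sex aged 0 to 24 hours. The 3 biological replicates form 1 group, of strain pnt-MiMIC-GFP, whose pnt gene carries eGFP as an artificial exon and makes a Pnt-eGFP fusion protein from it. The antibody label itself reads pnt, and the description was followed. No second condition was analysed here, so the snoRNA genes and their hosts were set against other genes, and 1 replicate against another. Whole embryos mix all tissues, and a peak does not say in which cells the protein was bound.

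snoRNAs guide the chemical modification of ribosomal RNA and of small nuclear RNA. C/D box snoRNAs guide 2'-O-methylation with the methyltransferase Fibrillarin, and H/ACA box snoRNAs guide pseudouridylation with the pseudouridine synthase that Nop60B encodes. The related scaRNAs act on small nuclear RNAs in Cajal bodies, and U3 and U14 take part in cleavage of the ribosomal RNA precursor. Most snoRNAs of flies lie in introns of a host gene and are cut from the spliced intron, so the host promoter makes the precursor of the snoRNA. Many hosts encode ribosomal proteins or other parts of the translation machinery, and others, named Uhg, are spliced non-coding RNAs. Pnt itself acts downstream of receptor tyrosine kinases such as the EGF receptor, and ETS proteins bind DNA around a GGAA core.

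Of the 9 snoRNA genes near a summit of the optimal peak list, the genomic sequences of 5 are shown to give the reader the loci behind the counts, with the sister copies of 2 of them in the same host. Sequences are 5' to 3' on the strand of the gene, from the RefSeq Release 6 (dm6) genome. Capitals mark a C box (ATGATGA or GTGATGA), a D box (CTGA) near the 3' end, or the ACA of an H/ACA snoRNA near the 3' end, where a search found one. The ACA was found in 106 of 114 genes named as H/ACA guides (93.0%), and both C and D boxes in 40 of 91 named as C/D guides (44.0%), so that a C box with other letters was not marked. Me28S-A774b lies in intron 2 of RpS12 at chr3L:13023580-13023652 (plus strand), and Me28S-A774a, at chr3L:13024226-13024298 (plus strand), is identical to it in 63 of 74 aligned positions (85.1%). Or-CD11a lies in intron 1 of RpL28 at chr3L:3222475-3222541 (minus strand). Its copies in the same host are Or-CD11b at chr3L:3222263-3222329 (minus strand) and Or-CD11c at chr3L:3222050-3222116 (minus strand), 82.1% and 82.4% identical to it and 95.5% identical to each other. Psi18S-1275 lies in intron 1 of RpS29 at chr3R:9778398-9778537 (plus strand). Psi28S-1232 lies in intron 1 of RpL17 at chrX:6743675-6743815 (minus strand). MeU1:95C-A24 is a scaRNA gene with no host on its strand, at chr2L:901976-902082 (minus strand).
Me28S-A774b: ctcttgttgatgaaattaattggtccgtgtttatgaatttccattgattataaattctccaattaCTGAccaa
Me28S-A774a: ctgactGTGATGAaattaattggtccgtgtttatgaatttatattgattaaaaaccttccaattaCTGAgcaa
Or-CD11a: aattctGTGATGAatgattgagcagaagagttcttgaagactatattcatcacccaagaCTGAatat
Or-CD11b: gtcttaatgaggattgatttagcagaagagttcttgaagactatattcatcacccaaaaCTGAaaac
Or-CD11c: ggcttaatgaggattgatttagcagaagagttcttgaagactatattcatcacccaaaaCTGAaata
Psi18S-1275: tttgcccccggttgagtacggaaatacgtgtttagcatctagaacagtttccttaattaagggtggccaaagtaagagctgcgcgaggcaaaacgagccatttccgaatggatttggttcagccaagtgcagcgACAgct
Psi28S-1232: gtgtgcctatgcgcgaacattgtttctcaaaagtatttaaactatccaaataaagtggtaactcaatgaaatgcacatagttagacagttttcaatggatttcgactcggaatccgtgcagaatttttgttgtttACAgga
MeU1:95C-A24: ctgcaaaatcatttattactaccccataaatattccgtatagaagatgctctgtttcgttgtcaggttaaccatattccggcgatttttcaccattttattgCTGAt

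Few snoRNA genes had Pnt bound close by. In the optimal list of 3646 peaks, which the authors derived from the replicate lists, 9 of 269 snoRNA genes (3.35%) lay within 500 bp of a summit. The same window took in 18.5% of all annotated genes and 21.9% of protein-coding genes, which are far longer. The short tRNA genes stood at 5.17% (15 of 290) and the miRNA genes at 3.08% (8 of 260). A position drawn from anywhere on the 6 arms, as the centre of a stretch of the median snoRNA gene length of 134 bp, was as near in 2.97% of cases, and a position in an intron of a protein-coding gene in 3.18%. The share of all snoRNA genes was close to those of miRNA genes and of intronic DNA. It joins 6 of 247 genes inside a host gene with 3 of 22 genes that have no host on their own strand. Some of the 22 may lie inside a gene on the other strand. These shares are descriptions, and no test was run on them. Intron positions lay farther from a TSS: 46572276 of 55814931 were 2000 bp or more downstream of it, against 90 of the 247 genes inside a host. By kind of guide, 4 of 91 C/D box genes, 3 of 114 H/ACA box genes, 1 of 16 scaRNA genes and 1 of 48 genes with other names were near.

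The 9 near genes had 9 different peaks, and 6 of them lay in 6 different hosts. In 5 of these 6 the summit lay at the transcription start site (TSS) of the host, within 500 bp of it. Psi28S-2949, an H/ACA gene in intron 1 of the non-coding host Uhg4 (chr2R:9095372-9095526), was 191 bp from its summit, which lay 92 bp from the host TSS. Its nearest summit was 199, 196 and 157 bp away in the relaxed lists of replicates 1, 2 and 3. That peak had the highest signal of the 9, 349.7 on the authors' scale, and rank 425 of the list. Me28S-A774b was 297 bp from the summit at the RpS12 TSS (signal 190.6), and its nearest summit was 295, 317 and 6 bp away in replicates 1, 2 and 3. Psi18S-1275 was 366 bp from the summit at the RpS29 TSS (signal 228.9), and 341, 368 and 375 bp from a summit in the 3 replicates. RpS12 and RpS29 encode proteins of the small ribosomal subunit, and at both genes the 3 replicates placed a summit within 500 bp of the snoRNA gene.

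The other near genes differed more between replicates. Or-CD11a was 458 bp from the summit at the RpL28 TSS (signal 151.8), with a summit at 500 bp in replicate 1, at 2288 bp in replicate 2 and at 452 bp in replicate 3. Psi28S-1232 was 485 bp from the summit at the RpL17 TSS (signal 187.1), and weaker summits lay at 22, 151 and 66 bp in replicates 1, 2 and 3, with ranks 9614, 22253 and 6071. RpL28 and RpL17 encode proteins of the large subunit. Or-CD4, a C/D gene (chr2R:14624253-14624330) in the non-coding host Uhg5, was the exception among genes with a host: its summit lay 328 bp away but 3057 bp from the nearest TSS of Uhg5. Replicates 1 and 3 had a summit within 500 bp of it, and the nearest in replicate 2 was 4660 bp away.

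The 3 near genes without a host were snoRNA:185, Or-CD13 and the scaRNA gene MeU1:95C-A24. snoRNA:185 (chr2R:19727098-19727152) was 33 bp from its summit and was the one snoRNA gene that an optimal peak covered. With snoRNA, tRNA, rRNA and snRNA genes and pseudogenes left out, the nearest annotated TSS lay 13109 bp from that summit. Its signal was 113.4, and replicates 1, 2 and 3 placed a summit 18, 0 and 138 bp away. Or-CD13 (chr2R:10082253-10082322) was 417 bp from a summit of signal 209.1, with replicate distances of 372, 427 and 419 bp. MeU1:95C-A24 was 470 bp from a summit of signal 93.3, rank 3634 of 3646, and 469, 478 and 259 bp from a summit in the replicates. These 3 summits were 13109, 3333 and 2523 bp from the nearest annotated TSS of the remaining genes. The starts of the snoRNA genes themselves were not counted in these distances.

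**Figure D1:**
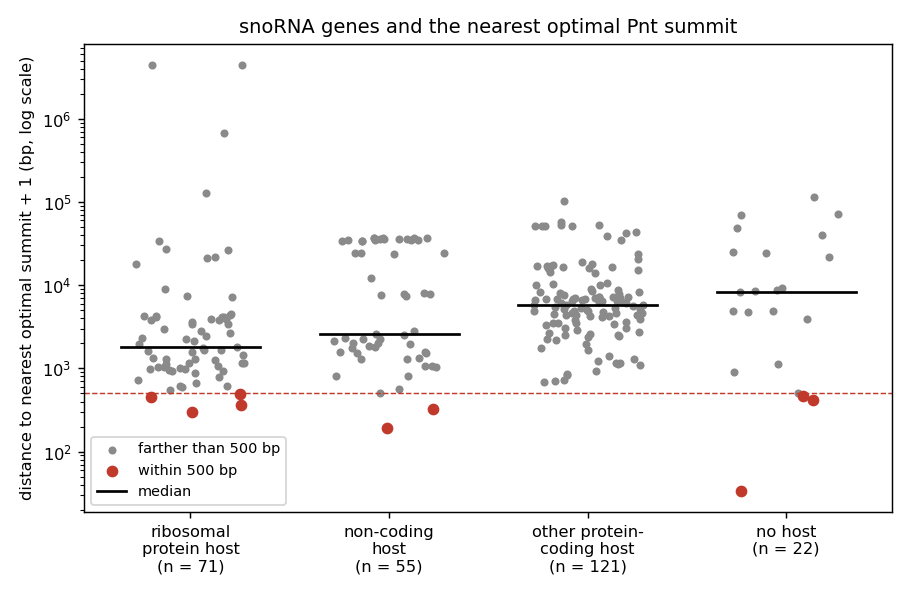
Distance from each of the 269 snoRNA genes to the nearest optimal summit, plus 1 bp, on a log axis, by kind of host; each point is a gene, red points lie within 500 bp (dashed line) and bars are medians. The 9 red points are 4 genes in ribosomal protein hosts, 2 in non-coding hosts and 3 without a host, and the 121 genes in other protein-coding hosts (the translation factor host included) have none.

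The distance that counts as near decided the number. Within 200 bp there were 2 genes, within 1000 bp 34 and within 2000 bp 79. The shares of all annotated genes and of positions were not computed at these windows. The rise is therefore not a result about snoRNA genes. Just outside the 500 bp limit lay Or-aca5 of Uhg4 at 504 bp, Or-ACA6 at 511 bp, U49:66Da of RpL14 at 552 bp and Me28S-G2703c of Uhg5 at 567 bp, and just inside it Psi28S-1232 at 485 bp. The 34 genes within 1000 bp shared 23 peaks, and for 23 of the 34 the summit was at the host TSS. Among the 25 genes at 501 to 1000 bp this held for 18. The snoRNA genes whose nearest optimal peak was strongest were not close to it: both genes of RpL15 (signal 1951, at 4388502 and 4389073 bp), the 7 genes of RpS7 (signal 666.9, at 3401 to 4516 bp) and the 3 genes of Stt3A (signal 642.7, at 1990 to 3373 bp). In 80.9% of optimal peaks, and in 7 of the 9 peaks near snoRNA genes, the deposited summit was the midpoint of a peak whose median width is 384 bp, so single distances are coarse.

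Genes in a host lay 1465 bp downstream of its nearest upstream TSS at the median, with a range of 0 to 50634 bp. The share near a peak was highest under 500 bp from that TSS in each list given here. Of the 33 genes under 500 bp from the host TSS, 5 were near an optimal summit (15.2%), against 11.6% of intron positions at the same distance. None of 51 genes from 500 to under 1000 bp and none of 73 from 1000 to under 2000 bp was near, against 6.09% and 5.49% of intron positions. Beyond that, 1 of 90 was near (1.11%), against 2.44% of positions. In the relaxed list of replicate 3 the same 4 shares were 69.7%, 52.9%, 56.2% and 21.1% for snoRNA genes, against 53.4%, 40.9%, 35.4% and 16.9% for intron positions. In that of replicate 2 they were 18.2%, 11.8%, 8.22% and 7.78%, against 27.3%, 23.6%, 25.7% and 23.5%. In that of replicate 1 they were 36.4%, 17.6%, 13.7% and 18.9%, against 37.9%, 29.4%, 28.5% and 20.7%. snoRNA genes thus stood above introns in replicate 3 at all 4 distances and below them in replicates 1 and 2.

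**Figure D2:**
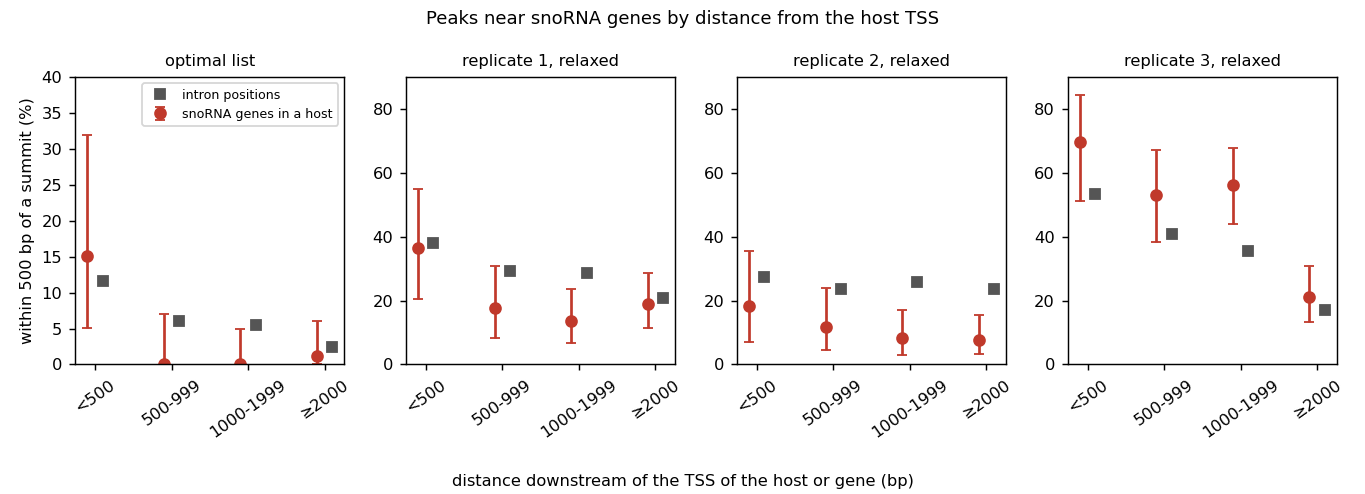
Percentage of snoRNA genes in a host (red points, with exact 95% Clopper-Pearson intervals for counting error) and of intron positions of protein-coding genes (grey squares) within 500 bp of a summit, by distance from the TSS, in the optimal list and the 3 relaxed lists; the optimal panel has its own scale. In replicate 3 the red points lie above the squares and in replicate 2 below them.

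The relaxed lists, which also hold weak peaks and background regions, gave larger and discordant counts. In the pooled relaxed list of 23148 peaks, 73 of 269 snoRNA genes (27.1%) were near a summit, against 54.3% of all annotated genes and 17.7% of positions. Replicate 1 had 58 near (21.6%), against 60.3% of genes and 22.9% of positions. Replicate 2 had 31 (11.5%), against 52.7% and 23.2%. Replicate 3 had 124 (46.1%), against 60.7% and 20.7%. The replicates' lists are almost equal in length, 30000, 29997 and 30000 peaks on these arms. The cause of the range from 31 to 124 was not tested. For tRNA genes the shares in replicates 1, 2 and 3 were 33.4%, 13.8% and 57.6%, and for cytoplasmic ribosomal protein genes 84.9%, 46.2% and 94.6%. snoRNA genes, tRNA genes and ribosomal protein genes all had their highest share in replicate 3 and their lowest in replicate 2. The order was not particular to them: it held for miRNA genes (21.5%, 17.7% and 29.6%) and for all annotated genes. Protein-coding genes too were lowest in replicate 2 (67.4%, 58.7% and 67.3%). Over the 5 lists, 7 snoRNA genes (2.6%) were near a summit in every list, against 17.5% of all annotated genes, 4.48% of tRNA genes, 1.92% of miRNA genes and 2.68% of positions. Another 129 snoRNA genes (48.0%) were near one in none of the 5, against 19.7%, 32.8%, 53.1% and 56.3%.

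Among strong peaks the counts of snoRNA genes were smaller, but the order of the replicates was the same. Each replicate's top list was taken as its 3646 peaks of highest signal, as many as the optimal list holds. In these, 9, 6 and 17 snoRNA genes were near a summit in replicates 1, 2 and 3, a mean of 10.7 ± 5.69 (SD, n = 3 replicates). These are 3.35%, 2.23% and 6.32% of snoRNA genes, against 18.8%, 16.9% and 19.6% of all annotated genes and 2.95%, 2.97% and 2.95% of positions. Psi28S-2949, Me28S-A774b, Psi18S-1275 and Or-CD13 were near in all 3 top lists, and these 4 are among the optimal 9. Another 11 genes were near a summit of some top list but of no optimal peak. Among them were snoRNA:lola-a in replicate 1, Psi18S-920 of RpL10Ab in replicates 1 and 2, and the hostless gene Psi28S-1153 with its 2 neighbours in replicate 3.

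The hosts gave another picture from the snoRNA genes inside them. The 247 snoRNA genes with a host lay in 92 hosts, 55 with 1 snoRNA gene and 37 with more. An optimal summit lay within 500 bp of a TSS in 37 of the 92 hosts (40.2%, exact 95% interval 30.1 to 51.0% for counting error), against 15.8% of protein-coding genes. Those 37 hosts hold 92 snoRNA genes, and 5 of the 37 had a snoRNA gene within 500 bp of a summit. Hosts had more annotated TSSs, a mean of 1.92 against 1.41 in protein-coding genes, and with the 5' end of the gene as the single start the shares were 33.7% against 13.9%. By the top list of replicates 1, 2 and 3, 41, 25 and 43 hosts had a summit at a TSS, a mean of 36.3 ± 9.87 (SD, n = 3), where the shares of protein-coding genes were 16.1%, 12.8% and 17.4%. In the pooled list and the relaxed lists of replicates 1, 2 and 3, the numbers were 72, 72, 42 and 81 hosts, against 42.5%, 45.1%, 33.3% and 54.6% of protein-coding genes. Hosts thus had a larger share than protein-coding genes in all 8 lists. The lists come from the same 3 replicates, and each top list is part of a relaxed list, so they are not independent.

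Ribosomal protein hosts had the largest share among the kinds of host with more than 1 gene. A summit lay at a TSS in 16 of 28 ribosomal protein hosts (57.1%, interval 37.2 to 75.5%), in 18 of 53 other protein-coding hosts (34.0%, 21.5 to 48.3%), in 2 of 10 non-coding hosts (20.0%, 2.52 to 55.6%) and in the translation factor host eEF1alpha1. Beside the non-coding hosts, ncRNA genes without the miRNA genes stood at 5.16% (155 of 3001). Cytoplasmic ribosomal protein genes as a whole stood at 43.0% (40 of 93). The 65 ribosomal protein genes that host no snoRNA gene stood at 36.9% (25.3 to 49.8%), an interval that overlaps that of the 28 hosts. In the top lists of replicates 1, 2 and 3 the ribosomal protein hosts stood at 67.9%, 32.1% and 67.9%, against 30.8%, 18.5% and 52.3% of the ribosomal protein genes that host none. Only in replicate 1 did the 2 intervals not overlap (47.6 to 84.1% and 19.9 to 43.4%). The direction was the same in the optimal list and all 3 top lists, with 28 and 65 genes behind each share. The optimal list rests on the same replicates, so it is no independent support. Other protein-coding hosts, at 34.0%, exceeded all protein-coding genes too. Over the 92 hosts, 18 had a summit at a TSS in all 3 top lists and 53 in at least 1, and those 18 also had one in the optimal list.

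**Figure D3:**
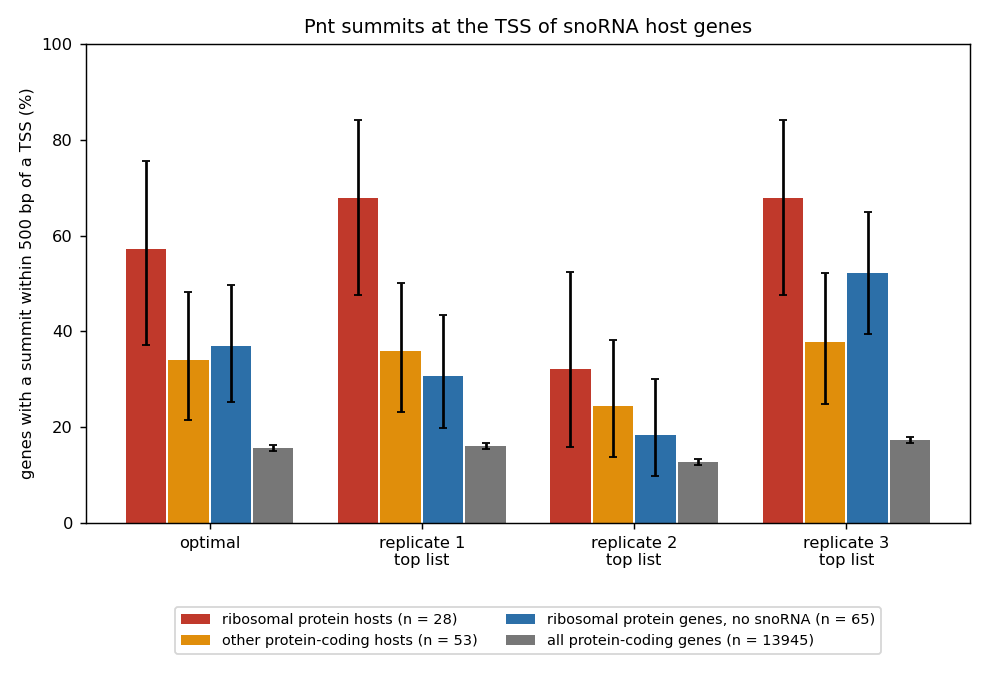
Percentage of genes with a summit within 500 bp of a TSS in the optimal list and each replicate's top list, with exact 95% Clopper-Pearson intervals for counting error. Ribosomal protein hosts (red, 57.1% in the optimal list) stand highest in each list, followed by other protein-coding hosts or ribosomal protein genes without a snoRNA gene, and all protein-coding genes (grey, 15.8%) stand lowest.

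The summit of the 37 host peaks lay 93 bp from the TSS at the median, in 34 hosts on or upstream of it and in 3 downstream. Their signals ran from 96.39 to 791.9 with a median of 185.4, against 93.2 to 2989 with a median of 153.5 in the whole optimal list. The strongest was at Msp300 (signal 791.9, rank 66), which encodes a giant nesprin that links the nucleus to actin, and the single snoRNA gene it holds lies 94238 bp from that summit. Next came Stt3A (642.7, rank 111), which encodes a catalytic subunit of oligosaccharyltransferase, and RpS20 (495.8, rank 217). CG1142 (441.0, rank 263), Uhg4 (349.7, rank 425) and lola (327.0, rank 486), a gene of BTB zinc finger proteins, followed. In 10 of the 37 hosts the summit was closer to the TSS of another gene, among them bves at Stt3A, CG17271 at RpS20, Nelf-E at RpL14, CG5199 at Uhg8, lncRNA:CR44966 at RpL22, Pdss2 at skd, Vps60 at anchor, CG3085 at Fib and trbd at dmt. A peak there cannot be assigned to 1 of the 2 promoters from its position.

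The host peaks did not look alike in the 3 replicates. A summit at the TSS was listed for all 37 hosts in the relaxed lists of replicates 1 and 3, but for 27 (73.0%) in that of replicate 2. The 10 missing hosts were RpL3, RpL4, RpL11, RpL13A, RpL28, RpL30, RpS3A, RpS16, anchor and hts, of which 8 encode ribosomal proteins. Thus 8 of 16 ribosomal protein hosts were listed in replicate 2, against 19 of 21 other hosts (90.5%). Among protein-coding genes with an optimal summit at a TSS the share was 91.3% (2006 of 2197), and among ribosomal protein genes that host no snoRNA gene 62.5% (15 of 24). In replicate 3 the 16 ribosomal protein host peaks had a median rank of 692 of 30000, in replicate 1 of 1688.5, and the 8 listed in replicate 2 had 2083.5. For the 18 other protein-coding hosts besides eEF1alpha1 the median ranks were 1211 in replicate 1, 1463.5 in replicate 2 (16 listed) and 1484 in replicate 3. RpL30 was uneven, with ranks 10309 in replicate 1 and 424 in replicate 3 and no summit at its TSS in replicate 2. RpS20 was strong in all 3, with ranks 151, 316 and 241. Read counts were not analysed here, so no depth can be given beside this difference between replicates.

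Among the 12 ribosomal protein hosts without an optimal summit at a TSS were RpL5, RpL7A, RpL10Ab, RpL15, RpL27A, RpL36A, RpS6, RpS7, RpS9 and sta. In the pooled relaxed list 25 of the 28 ribosomal protein hosts had one (89.3%), against 75.4% of the ribosomal protein genes that host no snoRNA gene. Of those named, RpL15, RpS9 and sta had no pooled summit at a TSS, and among the others the pooled rank was 3823 of 23148 at RpL10Ab and 7309 at RpL27A. RpL10Ab was listed at rank 3136 in replicate 1, 3155 in replicate 2 and 7421 in replicate 3. RpL15, by contrast, was listed at rank 3533 in replicate 1 and was absent at the TSS in replicates 2 and 3. Of its 2 snoRNA genes, Me18S-G1358c was 4388502 bp from the nearest optimal summit and was near a summit of the top list of replicate 1.

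**Figure D4:**
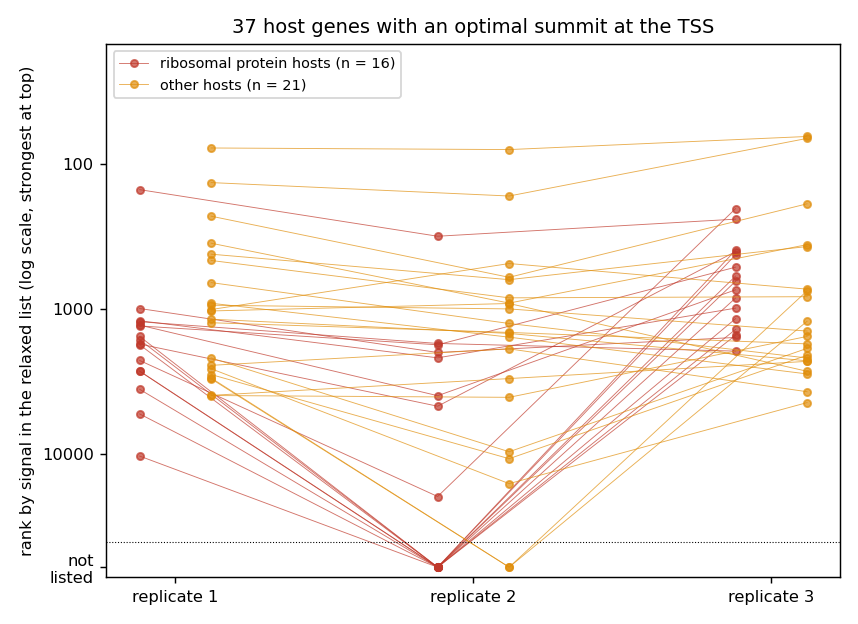
Rank by signal, on a log axis with the strongest at the top, of the summit at the TSS of each of the 37 hosts in the relaxed list of each replicate; points below the dotted line were not listed. Of the 16 ribosomal protein hosts (red), 8 drop out in replicate 2, and of the 21 other hosts (orange) 2 do.

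The promoters of 8 ribosomal protein hosts with a peak are shown because their motifs differ and 3 of them, RpS12, RpL28 and RpS29, belong to near snoRNA genes. Each runs from 100 bases before the 5' end of the gene to 30 bases from it, 5' to 3' on the strand of the gene. Capitals mark an ETS motif CCGGAA, which on the other strand reads TTCCGG. They also mark the DNA replication-related element TATCGATA, which is its own reverse complement. CTTT within 5 bp of the 5' end, as in the TCT initiator of ribosomal protein genes, is marked too. The CCGGAA of RpS12, at chr3L:13023378-13023383, runs past the end of its printed window and is not in capitals. The windows are RpS12 at chr3L:13023252-13023381 (plus strand), RpL28 at chr3L:3222931-3223060 (minus strand), RpS29 at chr3R:9777942-9778071 (plus strand), RpL13A at chr3R:5624374-5624503 (plus strand), RpL4 at chr3R:27922721-27922850 (plus strand), RpS5a at chrX:17148235-17148364 (minus strand), RpL14 at chr3L:8600906-8601035 (plus strand) and RpS3A at chr4:67178-67307 (minus strand).
RpS12: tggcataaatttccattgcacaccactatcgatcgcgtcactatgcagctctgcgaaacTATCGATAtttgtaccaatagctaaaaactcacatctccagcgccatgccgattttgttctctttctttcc
RpL28: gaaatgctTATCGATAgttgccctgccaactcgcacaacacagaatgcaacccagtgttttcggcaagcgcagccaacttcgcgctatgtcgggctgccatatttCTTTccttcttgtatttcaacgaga
RpS29: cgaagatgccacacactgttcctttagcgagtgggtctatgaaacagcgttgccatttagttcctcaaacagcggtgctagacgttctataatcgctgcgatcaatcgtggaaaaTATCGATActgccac
RpL13A: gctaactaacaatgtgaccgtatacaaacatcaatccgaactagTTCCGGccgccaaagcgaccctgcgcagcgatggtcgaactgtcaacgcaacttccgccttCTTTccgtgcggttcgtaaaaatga
RpL4: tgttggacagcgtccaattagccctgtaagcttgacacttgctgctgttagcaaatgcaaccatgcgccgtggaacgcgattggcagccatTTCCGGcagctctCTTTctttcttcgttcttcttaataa
RpS5a: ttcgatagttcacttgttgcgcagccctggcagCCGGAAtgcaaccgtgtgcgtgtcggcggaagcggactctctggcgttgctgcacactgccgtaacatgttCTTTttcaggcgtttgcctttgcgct
RpL14: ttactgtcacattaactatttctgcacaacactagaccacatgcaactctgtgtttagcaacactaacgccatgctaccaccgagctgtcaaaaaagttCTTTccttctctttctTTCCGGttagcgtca
RpS3A: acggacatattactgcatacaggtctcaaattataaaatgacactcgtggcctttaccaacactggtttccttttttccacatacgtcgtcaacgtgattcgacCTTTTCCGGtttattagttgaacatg

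CCGGAA, on either strand from 250 bases before to 50 after the 5' end, was present in 9 of 37 hosts with a peak at a TSS (24.3%) and in 3 of 55 hosts without (5.45%), beside 6.78% of protein-coding genes. All 9 were ribosomal protein genes, RpL4, RpL11, RpL13A, RpL14, RpL17, RpS3A, RpS5a, RpS12 and RpS16, so 9 of 16 ribosomal protein hosts with a peak held it (56.2%) and 0 of the 12 without. In 7 of the 9 the motif lay inside the peak, and it lay 31 to 540 bp from the summit with a median of 100 bp. The ribosomal protein genes that host no snoRNA gene went the other way, with 6 of 24 among those with a peak (25.0%) and 17 of 41 among those without (41.5%). Among protein-coding genes CCGGAA was present in 6.37% of those with an optimal summit at a TSS and 6.85% of those without. The bare core GGAA was present in 33 of 37 hosts with a peak (89.2%), 53 of 55 without (96.4%) and 88.1% of protein-coding genes. The DNA replication-related element was found in 7 of 37 hosts with a peak (18.9%) and 11 of 55 without (20.0%), beside 9.36% of protein-coding genes. CTTT near the 5' end was found in 12 of 37 hosts with a peak (32.4%) and 7 of 55 without (12.7%), beside 5.64% of protein-coding genes. Here too the ribosomal protein genes that host no snoRNA gene went the other way, with 6 of 24 among those with a peak (25.0%) and 15 of 41 among those without (36.6%), and protein-coding genes stood at 5.46% with and 5.67% without. In RpL13A the CCGGAA lay 34 bp from the summit and in RpS5a 31 bp, and in RpS12 95 bp, with the DNA replication-related element 28 bp from it. RpS29 held that element 25 bp from the summit and no CCGGAA. A match of letters is a description of the window and not a binding site.

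Of the 10 hosts with at least 7 snoRNA genes, 3 had an optimal summit at a TSS, RpS5a, kra and Uhg4. Arpc2, for a subunit of the Arp2/3 actin nucleator, holds 17 snoRNA genes, at 3302 to 6882 bp from an optimal summit, and none of them was near a summit in the pooled or any replicate list. Uhg1 holds 16, at 33575 to 37004 bp, of which 1, 0 and 5 were near a summit in replicates 1, 2 and 3. dom, for the Domino chromatin remodeller, holds 15, with 2, 0 and 2 near. RpS5a holds 14 and did have an optimal summit at its TSS (signal 178.5), but its nearest snoRNA gene was 1603 bp from the summit. kra holds 8 and had a summit at its TSS (signal 110.2), and 4, 0 and 8 of its snoRNA genes were near a summit in replicates 1, 2 and 3. RpS7 holds 7 and had no optimal summit at its TSS, and 0, 0 and 7 of its snoRNA genes were near one in the replicates. The 7 snoRNA genes of Hrb98DE had 0, 2 and 0, and those of Nop60B had none near in any of the 5 lists.

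The 22 snoRNA genes without a host lay in no annotated gene on their own strand. Of these, 3 were near an optimal summit (13.6%), beside 3.35% of all snoRNA genes and 18.5% of all annotated genes. In the pooled list 13 of the 22 were near (59.1%), beside 27.1% of all snoRNA genes and 54.3% of all annotated genes. U3 RNA genes were in this set: U3:9B lay on a pooled summit (0 bp, rank 4862) and U3:54Aa and U3:54Ab each 53 bp from one (ranks 14618 and 9291), whereas the optimal summits were 22094 to 72267 bp away. Replicate 3 placed a summit on all 3 U3 genes (0 bp each), replicate 1 had one within 500 bp of U3:9B and U3:54Ab (0 and 52 bp), and replicate 2 had none within 500 bp. Both U14 genes, in the host Uhg2, were near no summit of the 5 lists. Psi18S-176 lay on a pooled summit (0 bp) and 0, 12 and 95 bp from a summit in replicates 1, 2 and 3, and Or-CD14 was 243, 236 and 296 bp away. These 2 hostless genes had a summit in all 3 relaxed lists and none in the optimal list within 500 bp.

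Genes of the proteins that bind and assemble snoRNAs were set beside them, from a list of 15. An optimal summit lay at a TSS in 4 of 15 (26.7%), against 15.8% of protein-coding genes. Fib, which encodes the methyltransferase Fibrillarin of C/D particles and hosts 1 snoRNA gene, had a summit 73 bp from its TSS (signal 123.8). NHP2, an H/ACA core protein, had one at 187 bp (114.8). pont, which encodes a AAA+ ATPase of the R2TP assembly complex, had one at 148 bp (149.4), and the nucleolar chaperone gene Nopp140 had one at 44 bp (121.5). All 4 signals were below the optimal list's median of 153.5, and 5, 2 and 5 of the 15 had a summit at a TSS in the top lists of replicates 1, 2 and 3. Nop56, nop5, hoip, Nop60B, Nop10, Gar1, CG10341, rept, Nufip, Nop17l and mod had none in the optimal list.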

How the data were processed

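The files used were dm6 peak lists in narrowPeak form: a relaxed list for each of 3 replicates, a pooled relaxed list and an optimal list. Sonication gave pieces of 200 to 800 bp, per the labels' protocols. Each peak's signal was given by the authors, its scale is not stated, and it was used within a list only. The deposited summit is a position within the peak. For aligner, caller and optimal-list threshold, names and values were not given in the sources used here. Read alignments, signal tracks and dm3 lists were not analysed here, so library depth is unknown. Genes came from the Ensembl release 115 annotation, and all gene and peak ends lay within the dm6 arm lengths. A host was the shortest gene on the same strand that contains the snoRNA gene. Kinds of host were assigned by gene symbol or biotype. The translation factor kind took only symbols that begin with eIF, eEF or Ef1, so other hosts may include further genes of translation. A summit was at a TSS when within 500 bp of any annotated TSS. Motifs were exact letters. Intervals are exact Clopper-Pearson at 95% and cover counting error only. Those drawn for snoRNA genes treat genes of the same host as independent, which they are not. Analyses used Python 3.11.15, pandas 2.3.3 and scipy 1.17.1, with distances checked on simulated data. Members, gene lists and comparisons were chosen with earlier results of these data known. Genes named by rule are the near snoRNA genes and their hosts, those just outside the limit, those with the strongest nearest peak, hosts with most members, hostless near genes, U-numbered snoRNAs and the protein list. Other named hosts and snoRNA genes (strongest host peaks, hosts missing from a list or without a peak, those with a motif, and examples from the top lists or without a host) were chosen after their values were seen. Other lists, windows, host definitions and left-out replicates were tried. Values of a few host genes are not reported here.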

Additional observations from a re-analysis of the deposited data

How the results depend on the processing

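No paired analysis was possible because there is 1 group and no test. Of 82 values under other settings, 34 stayed within 1.5 times the reported count. In the following lists of 5 numbers, the order is snoRNA genes near a summit, their distinct hosts, near snoRNA genes with the summit at the host TSS, hosts with a summit at a TSS, and genes of the 15 on the snoRNP list with one; the optimal list gave 9, 6, 5, 37 and 4. The pooled list gave 73, 44, 21, 72 and 12, the relaxed list of replicate 1 gave 58, 37, 14, 72 and 10, that of replicate 2 31, 20, 7, 42 and 5, and that of replicate 3 124, 61, 33, 81 and 13. The top lists gave 9, 8, 6, 41 and 5 (replicate 1), 6, 4, 4, 25 and 2 (replicate 2), and 17, 8, 10, 43 and 5 (replicate 3). The 1823 strongest optimal peaks gave 6, 5, 4, 23 and 0. Whole peak intervals in place of summits gave 17, 10, 11, 40 and 4. Keeping optimal peaks found in both other top lists as each replicate was left out gave 4 to 7, 3 to 6, 3 to 5, 19 to 31 and 1 to 3, with 5, 3, 3, 19 and 1 without replicate 1 and 4, 3, 3, 19 and 2 without replicate 3. The first 3 were 2, 1 and 1 within 200 bp, 34, 19 and 23 within 1000 bp and 79, 34 and 52 within 2000 bp. The mean of 10.7 over the 3 top lists was 6.0 and 23.7 with lists of 1823 and 7292 peaks, and 2.67 and 34.0 within 200 and 1000 bp. No share over all genes was computed for whole intervals, left-out replicates, or these other windows and list sizes. The largest gene on either strand as host, TSS windows of 200 and 1000 bp, and the gene's 5' end alone kept all counts they touched within 1.5 times. The snoRNP values were added after the data were seen. The cause of these shifts was not tested. Single summits are coarse, and library depth was not known.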
